A study of Cucumis sativus with 12 samples.

Results

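Phenylalanine ammonia-lyase (PAL) genes were taken as the genes of the 4-time table of cucumber leaf transcriptomes whose description contains the enzyme's name. This gave 15 of the 24317 genes listed. All 15 carry the same enzyme number and the same orthologue number, those of PAL. Their identifiers placed 5 of them next to each other on chromosome 4 (CsaV3_4G002290, CsaV3_4G002300, CsaV3_4G002310, CsaV3_4G002320 and CsaV3_4G002330) and 7 next to each other on chromosome 6 (CsaV3_6G039660, CsaV3_6G039670, CsaV3_6G039680, CsaV3_6G039690, CsaV3_6G039700, CsaV3_6G039710 and CsaV3_6G039720), with no other listed gene in between. They are called the chromosome 4 run and the chromosome 6 run here. The other 3, CsaV3_1G040750, CsaV3_6G014060 and CsaV3_6G036550, stood alone. CsaV3_6G039660 is described as PAL 1 and CsaV3_6G036550 as PAL G4, and most of the others only as PAL-like.

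Cucumber (Cucumis sativus) seedlings with 3 true leaves were moved to cold at 15 °C by day and 6 °C by night, with 12 h of each. Leaves were taken without cold treatment (0 h) and after 3 h, 12 h and 24 h of cold, and 3 libraries were sequenced at each time. No cultivar, age in days or hour of sampling is used here. No group was kept warm for the same time, so that cold and leaf age cannot be told apart. The change from day to night cannot be told apart from cold either, except that 24 h and 0 h fall at the same hour of day. The paper gives a longer daily light period before the cold than during it, so that day length changed together with temperature. Levels are FPKM, the fragments of a gene per kilobase of transcript, scaled to the mapped fragments of the library, which are divided by gene length and so can be set side by side between genes. Fold changes are log2 differences of FPKM + 0.5 from limma, fitted on 17497 genes that reached 0.5 FPKM in 3 or more libraries, and all 15 PAL genes were among these. A gene is called higher or lower where its log2 fold change is past 1 in either direction and its p, adjusted over every tested gene by Benjamini-Hochberg, is under 0.05.

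PAL removes ammonia from phenylalanine and so makes cinnamate, the first step of the phenylpropanoid pathway. Lignin, flavonoids and other phenolic compounds are built from its product, and in several plants part of the salicylate as well. Plants hold PAL as a small gene family whose members differ in tissue and in response, and cold, wounding and pathogens are known to raise some of them in many species.

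PAL transcripts were abundant at 3 h, back near the starting level at 12 h and abundant again at 24 h. The FPKM of all 15 genes summed to 94.4, 64.0 and 101 in the 0 h libraries and to 579, 722 and 605 in the 3 h libraries. The sums were 83.7, 88.8 and 81.3 after 12 h, and 337, 236 and 361 after 24 h. All libraries of 3 h and 24 h lay above all libraries of 0 h and 12 h, which overlapped with each other. The genes that carried the sum changed with time. CsaV3_6G039660 was the most abundant PAL gene in every 0 h library, CsaV3_6G039700 in every 3 h library, CsaV3_6G014060 in every 12 h library and CsaV3_4G002290 in every 24 h library. The chromosome 4 run made up 3.21% to 18.1% of the PAL sum at 0 h, 46.8% to 48.9% at 3 h, 3.60% to 13.3% at 12 h and 36.6% to 50.4% at 24 h. The 3 single genes made up 25.6% to 34.6% at 0 h but 2.42% to 3.15% at 3 h, and at 12 h they held 51.0% to 60.4%. The sums are descriptions without a test.

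**Figure D1:**
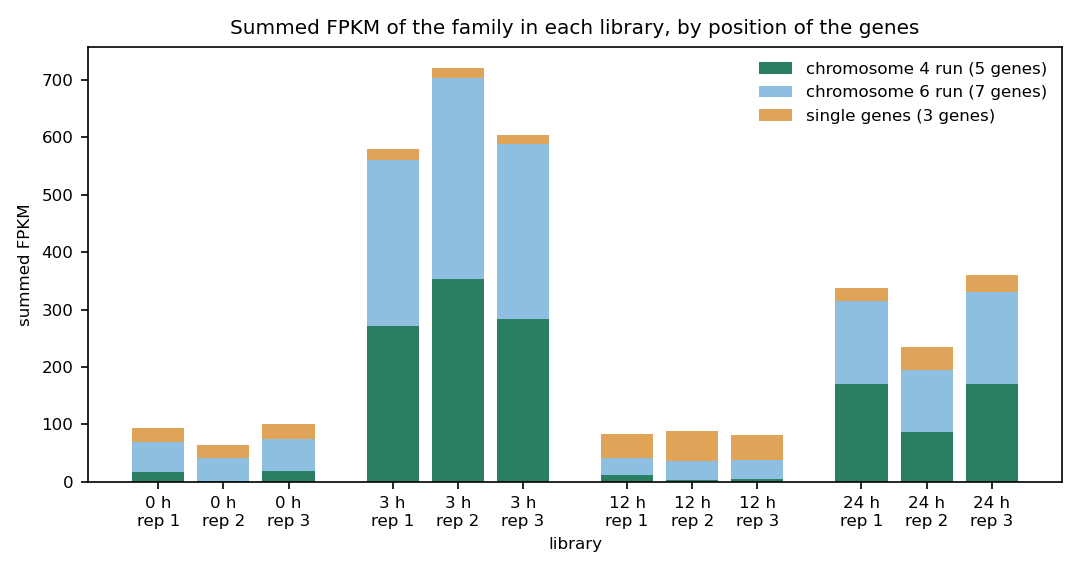
Summed FPKM of the PAL genes in each of the 12 libraries (y axis, linear from 0), stacked as the 5 genes of the chromosome 4 run, the 7 of the chromosome 6 run and the 3 single genes. The 3 h libraries reach 579 to 722 and the 24 h libraries 236 to 361, while those of 0 h and 12 h stay between 64.0 and 101.

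The libraries of 1 time did not all match in these genes. In 0 h replicate 2, 8 PAL genes were more than 1 log2 unit below the mean of the other 0 h libraries, against 0.634% of all tested genes in that library. They were the 5 genes of the chromosome 4 run with CsaV3_6G039680, CsaV3_6G039690 and CsaV3_6G039710, at -1.33 to -2.52. CsaV3_6G039700, CsaV3_6G039660 and the single genes were within 0.5 log2 units there. In 24 h replicate 2 the chromosome 4 run was also lowest of its time, but only CsaV3_4G002290 was past 1 unit, at -1.12. In 12 h replicate 1 CsaV3_4G002290, CsaV3_4G002300 and CsaV3_4G002310 were above the other 12 h libraries by 1.22, 1.21 and 1.31, against 1.24% of all tested genes past 1 unit there. 0 h replicate 2 and 24 h replicate 2 each had the largest sum of 14 phloem markers of their time, 818 FPKM against 490 and 668 at 0 h and 540 against 388 and 441 at 24 h. They also had the smallest sums of 7 epidermis and cuticle markers, 131 FPKM against 135 and 138 at 0 h and 72.9 against 87.4 and 96.5 at 24 h. Of 19 xylem and lignified cell markers the sums were again the smallest, at 17.7 FPKM against 18.6 and 19.6 and at 13.9 against 17.6 and 18.2. The 19 photosynthetic leaf markers summed to 28088 FPKM in 0 h replicate 2, the smallest of its time, and to 53983 in 24 h replicate 2, the largest of its time. In 12 h replicate 1, where chromosome 4 genes were high, the phloem sum was the largest of its time too, at 439 FPKM against 395 and 425. Its epidermis and xylem sums were also the largest of their time, at 98.9 and 11.8 FPKM. Its photosynthetic sum was the smallest, at 66282 FPKM. The part of tissue makeup in these differences was not tested. Results of PAL genes against 0 h are therefore also given without 0 h replicate 2. This is done where leaving it out ended or made a call or moved a fold by over 1.5 times. For genes of the pathway lists no such values are given.

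**Figure D2:**
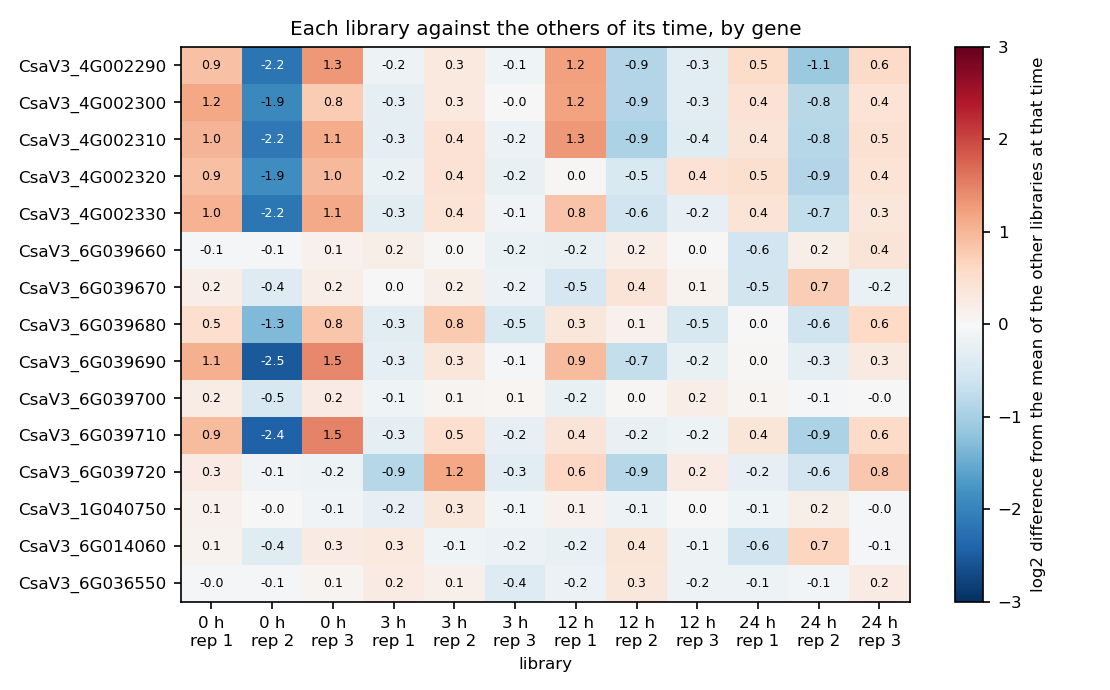
Log2 difference of each library from the mean of the other 2 of its time on the log2(FPKM + 0.5) scale (colour and printed value), for the PAL genes in rows and the 12 libraries in columns. The column of 0 h replicate 2 holds 8 genes below -1, and the rows of CsaV3_1G040750 and CsaV3_6G036550 stay within 0.5 of 0 in all libraries.

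After 3 h of cold, 10 of the 15 PAL genes were called higher and 0 lower in limma. Of all tested genes, 9.89% were called higher and 5.39% lower. PAL genes had a median log2 fold change of 3.91, and all tested genes one of 0.03. The 10 were the whole chromosome 4 run and CsaV3_6G039680, CsaV3_6G039690, CsaV3_6G039700, CsaV3_6G039710 and CsaV3_6G039720 of the chromosome 6 run. None of the single genes was called, and neither were CsaV3_6G039660 and CsaV3_6G039670.

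CsaV3_6G039700 reached the highest level of any PAL gene. It had 12.2, 8.67 and 12.3 FPKM before the cold and 160, 177 and 176 FPKM after 3 h. The groups were far apart, and the 3 h libraries lay close together. Its log2 fold change was 3.91 ± 0.12 (SE, n = 3 against 3; limma adjusted p = 3.13e-10), a 15.5-fold difference of the mean FPKM. This gene moved little in 0 h replicate 2.

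In the chromosome 4 run CsaV3_4G002290 was the most abundant gene. It had 8.36, 1.64 and 10.3 FPKM at 0 h and 127, 157 and 129 FPKM at 3 h. CsaV3_4G002300 had 1.58 and 1.24 FPKM in 0 h replicates 1 and 3, was listed at 0 in replicate 2, and had 34.7, 45.8 and 39.5 FPKM at 3 h. Every 3 h library was above every 0 h library in both. The log2 fold change was 4.55 ± 0.58 for CsaV3_4G002290 (limma adjusted p = 6.76e-05) and 5.04 ± 0.51 for CsaV3_4G002300 (limma adjusted p = 9.31e-06). Without 0 h replicate 2 they were 3.82 and 4.40, so that this library moved both folds by over 1.5 times without ending the call. With a pseudocount of 0.1 CsaV3_4G002300 was at 6.03, so that its fold also depends on the pseudocount.

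The other genes of the run were lower in level and close in size of change. CsaV3_4G002310 went from 3.08, 0.322 and 3.23 FPKM at 0 h to 52.2, 72.4 and 54.3 FPKM at 3 h. CsaV3_4G002320 went from 1.44, 0.0465 and 1.51 to 25.1, 33.6 and 24.7 FPKM, and CsaV3_4G002330 from 1.92, 0.0494 and 2.03 to 31.9, 44.4 and 35.2 FPKM. Replicate 2 was the lowest at 0 h and the highest at 3 h in all 3 genes, and replicate numbers did not pair the libraries. Their log2 fold changes were 4.74 ± 0.56, 4.44 ± 0.43 and 4.64 ± 0.51 (SE, limma adjusted p = 4.06e-05, 5.19e-06 and 1.81e-05), and 4.03, 3.82 and 3.91 without 0 h replicate 2. CsaV3_4G002320 was at 5.27 and CsaV3_4G002330 at 5.42 with a pseudocount of 0.1. CsaV3_4G002290 held 51.0% to 79.6% of the run's FPKM at 0 h, 44.4% to 47.0% at 3 h, 43.4% to 48.4% at 12 h and 44.8% to 49.8% at 24 h. CsaV3_4G002320 held 2.27% to 8.82% at 0 h, 8.74% to 9.51% at 3 h, 3.803% to 12.5% at 12 h and 7.79% to 8.31% at 24 h. The share of CsaV3_4G002290 thus spread most at 0 h, with replicate 2 apart, and that of CsaV3_4G002320 most at 12 h. Neighbouring genes with like sequences can share reads, and the sources used here do not say how reads that map to several places were assigned. The split between these genes is uncertain for that reason.

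In the chromosome 6 run, CsaV3_6G039690 and CsaV3_6G039710 rose as the chromosome 4 genes did. CsaV3_6G039690 had 2.78, 0.123 and 3.41 FPKM at 0 h and 39.4, 52.8 and 43.9 FPKM at 3 h. CsaV3_6G039710 had 2.65, 0.166 and 3.55 FPKM at 0 h and 47.8, 68.9 and 48.7 FPKM at 3 h. In both, the 0 h libraries spread widely and still did not reach the 3 h libraries. Their log2 fold changes were 4.51 ± 0.57 and 4.75 ± 0.56 (limma adjusted p = 6.60e-05 and 3.84e-05), and 3.67 and 3.94 without 0 h replicate 2. CsaV3_6G039690 was at 5.10 with a pseudocount of 0.1. CsaV3_6G039680 rose less, from 3.00, 0.997 and 3.55 FPKM to 13.8, 23.3 and 12.9 FPKM, a log2 fold change of 2.58 ± 0.35 (limma adjusted p = 6.57e-05).

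CsaV3_6G039720 was the lowest PAL gene at 0 h, at 0.115, 0.0218 and 0.0101 FPKM, and reached 0.239, 1.38 and 0.451 FPKM at 3 h. It passed the filter on low values only through later libraries. Its call at 3 h was borderline, at a log2 fold change of 1.003 ± 0.35 (limma adjusted p = 0.0295). The call was lost with a pseudocount of 1 (0.63), with median-ratio rescaling (0.94) and with quantile normalization (0.77). The value was 2.19 with a pseudocount of 0.1. The call was also lost without 0 h replicate 2 (0.97), without 0 h replicate 3 (0.95) and without 3 h replicate 2 (0.62).

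The 5 remaining genes had small changes at 3 h. CsaV3_6G039660 had 24.6, 24.6 and 26.9 FPKM at 0 h and 17.6, 16.6 and 14.7 FPKM at 3 h, at a log2 fold change of -0.63 ± 0.15 (limma adjusted p = 0.00292). CsaV3_1G040750 had 9.06, 8.43 and 8.08 FPKM and then 4.35, 5.86 and 4.71 FPKM, at -0.73 ± 0.11 (limma adjusted p = 0.000162). Both passed the adjusted p but not the fold threshold, and their groups did not overlap. CsaV3_6G039670 was the only one of the 5 on the other side of 0, at 0.63 ± 0.21 (limma adjusted p = 0.0229). CsaV3_6G014060 and CsaV3_6G036550 missed both thresholds, at -0.39 and -0.32 (limma adjusted p = 0.101 and 0.113).

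The epidermis and phloem marker sums moved at 3 h too. Those of the xylem and photosynthetic markers overlapped with 0 h. The sum of the epidermis and cuticle markers was 131 to 138 FPKM at 0 h and 275 to 314 FPKM at 3 h, with 3 of the 7 called higher, and none of the 7 was at 0 in all libraries of a time. The sum of the xylem and lignified cell markers was 17.7 to 19.6 FPKM at 0 h and 15.9 to 18.3 FPKM at 3 h, with 0 of 11 tested called. The phloem markers summed to 490 to 818 FPKM at 0 h and 340 to 479 FPKM at 3 h, without overlap, with 1 of 8 tested called higher and 0 lower, and of the 14 listed 3 were at 0 in all libraries at 0 h and 1 at 3 h. The photosynthetic markers were all present at each time and summed to 28088 to 32579 FPKM before the cold and 29027 to 32850 after 3 h, yet 8 of the 19 were called higher and 0 lower, at a median log2 fold change of 0.79. Over all tested genes 9.89% were called higher and 5.39% lower at 3 h, and the phloem count was near those shares. The part of these cell types in the 3 h result was not tested. In bulk leaves, a change in the number of cells of a type and a change in RNA per cell cannot be told apart.

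**Figure D3:**
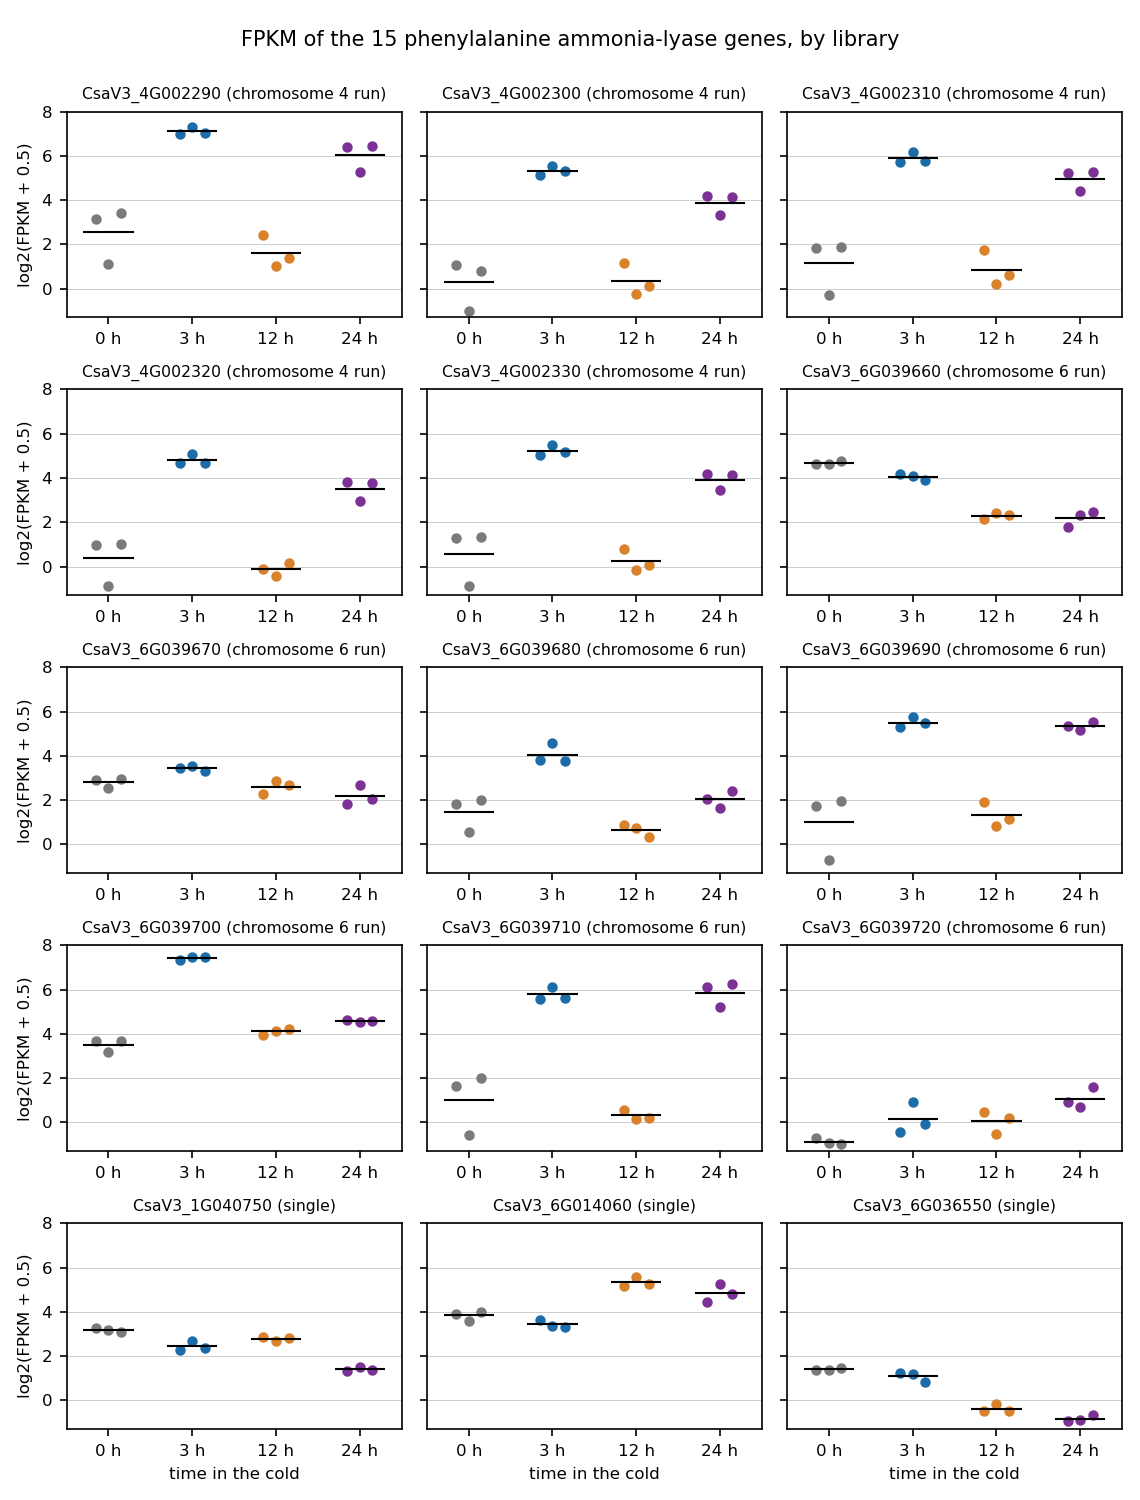
Log2(FPKM + 0.5) of each PAL gene (1 panel a gene, with its position) in the 3 libraries of each time (points) with their mean (bars). The 5 panels of the chromosome 4 run and those of CsaV3_6G039690 and CsaV3_6G039710 are high at 3 h and 24 h and low at 0 h and 12 h, while CsaV3_6G014060 is highest at 12 h and CsaV3_6G039660 and CsaV3_6G036550 are lower at 12 h and 24 h than at 0 h.

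After 12 h of cold, 1 PAL gene was called higher than at 0 h and 2 were called lower. Of all tested genes, 9.62% were called higher and 16.6% lower. Over the PAL genes the median log2 fold change was -0.34 and over all tested genes -0.23, and changes relative to the latter are given beside the called genes. These counts share the 0 h libraries with those of 3 h and 24 h.

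CsaV3_6G014060 rose at 12 h, when most of the family was low. It had 14.5, 11.6 and 15.6 FPKM at 0 h, 12.0, 9.82 and 9.54 FPKM at 3 h and 35.7, 47.2 and 37.1 FPKM at 12 h. All 12 h libraries were above all of those. Against 0 h the log2 fold change was 1.49 ± 0.19 (limma adjusted p = 2.12e-05), or 1.72 relative to the median of all genes. It held 42.7% to 53.2% of the PAL FPKM at 12 h and 1.36% to 2.07% at 3 h.

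CsaV3_6G039660 and CsaV3_6G036550 fell. CsaV3_6G039660, the leading PAL gene at 0 h, was at 3.96, 4.92 and 4.48 FPKM at 12 h, and its log2 fold change was -2.39 ± 0.15 (limma adjusted p = 2.49e-08), or -2.16 relative to the median of all genes. CsaV3_6G036550 went from 2.11, 2.09 and 2.27 FPKM at 0 h to 0.208, 0.403 and 0.215 FPKM, at -1.79 ± 0.16 (limma adjusted p = 8.59e-07), or -1.56 relative to that median. The libraries of the groups were far apart in both. CsaV3_6G036550 passed the filter on low values only through its 0 h and 3 h libraries, and its size of change depended on the pseudocount, at -2.63 with 0.1.

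Of the genes that rose at 3 h, all but CsaV3_6G039720 were near their starting levels at 12 h. The 0 h and 12 h libraries of these genes overlapped except in CsaV3_6G039700 and CsaV3_6G039720. CsaV3_4G002290, for instance, had 4.93, 1.55 and 2.14 FPKM at 12 h, at a log2 fold change of -0.93 ± 0.58 against 0 h (limma adjusted p = 0.177). This comparison turned on 0 h replicate 2. Without it, 8 PAL genes were called lower at 12 h in place of 2, and the 6 added were CsaV3_4G002290 at -1.66, CsaV3_4G002310 at -1.02, CsaV3_4G002320 at -1.11, CsaV3_4G002330 at -1.06, CsaV3_6G039680 at -1.27 and CsaV3_6G039710 at -1.52. CsaV3_4G002300 and CsaV3_6G039690 changed sign without that library, from 0.07 to -0.58 and from 0.31 to -0.53, and were not called either way.

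CsaV3_6G039700 was somewhat above its start, at 15.1, 17.0 and 18.4 FPKM, a log2 fold change of 0.60 ± 0.12 (limma adjusted p = 0.000668) that stayed under the fold threshold. CsaV3_6G039670 was at 4.30, 6.78 and 5.90 FPKM, at -0.20 ± 0.21 (limma adjusted p = 0.423), a value that turned to 0.044 with median-ratio rescaling. CsaV3_6G039720 was at 0.867, 0.194 and 0.654 FPKM, at 0.91 ± 0.35 (limma adjusted p = 0.0366). It was called higher with a pseudocount of 0.1 (2.07), with quantile normalization (1.01) and without 12 h replicate 2 (1.20).

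From 3 h to 12 h, 11 PAL genes fell and 1 rose, against 15.3% lower and 6% higher among all tested genes. Medians of the log2 fold change were -3.41 for the PAL genes and -0.29 for all tested genes. CsaV3_4G002290 fell furthest, at -5.48 ± 0.58 (limma adjusted p = 1.20e-05), and CsaV3_6G039710 followed at -5.46 ± 0.56 (limma adjusted p = 9.54e-06). Their 12 h libraries did not exceed 4.93 and 0.989 FPKM. With a pseudocount of 0.1 CsaV3_4G002300, CsaV3_4G002320, CsaV3_4G002330 and CsaV3_6G036550 had larger values, at -5.58, -5.78, -5.60 and -2.24, and with a pseudocount of 1 CsaV3_4G002320 was at -4.33. The other 4 genes of the chromosome 4 run lay between -4.94 and -5.05 with the pseudocount of 0.5, CsaV3_6G039690 was at -4.20, CsaV3_6G039680 at -3.41 and CsaV3_6G039700 at -3.31. CsaV3_6G039660 and CsaV3_6G036550, which had changed little at 3 h, fell by 1.76 and 1.47. CsaV3_6G014060 was the gene that rose, by 1.88 ± 0.19 (limma adjusted p = 3.99e-06). CsaV3_6G039720 was at -0.09 and turned to 0.060 with median-ratio rescaling and 0.24 with quantile normalization.

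After 24 h of cold, 9 PAL genes were called higher than at 0 h and 3 were called lower. Of all tested genes, 13.2% were called higher and 18.1% lower. The PAL genes had a median log2 fold change of 1.94 and all tested genes one of -0.17. The 9 were the chromosome 4 run with CsaV3_6G039690, CsaV3_6G039700, CsaV3_6G039710 and CsaV3_6G039720. CsaV3_6G039720 passed the filter on low values only through libraries after 0 h. CsaV3_6G036550, called lower, passed it only through 0 h and 3 h. Both counts thus hold a gene that was tested only through times where it was high.

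The chromosome 4 run was high again, below its 3 h level. CsaV3_4G002290 had 84.1, 38.6 and 85.2 FPKM, CsaV3_4G002300 had 17.5, 9.55 and 17.3 FPKM and CsaV3_4G002310 had 36.8, 20.6 and 38.0 FPKM at 24 h. Replicate 2 was the lowest in each, and every 24 h library was above every 0 h and below every 3 h library. Their log2 fold changes against 0 h were 3.48 ± 0.58, 3.60 ± 0.51 and 3.81 ± 0.56 (limma adjusted p = 0.000271, 6.40e-05 and 0.000110), or 3.65, 3.78 and 3.99 relative to the median of all genes. Without 0 h replicate 2 they were 2.75, 2.96 and 3.09. CsaV3_4G002320, at 13.8, 7.17 and 13.3 FPKM, and CsaV3_4G002330, at 17.8, 10.4 and 17.2 FPKM, had 3.16 and 3.34 (limma adjusted p = 4.03e-05 and 0.000117), and 2.54 and 2.62 without that library. With a pseudocount of 0.1 CsaV3_4G002300, CsaV3_4G002320 and CsaV3_4G002330 were at 4.56, 3.95 and 4.10.

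In the chromosome 6 run only some genes were near their 3 h levels. CsaV3_6G039710 had 68.3, 36.9 and 75.1 FPKM at 24 h and CsaV3_6G039690 had 40.7, 35.1 and 45.6 FPKM, which in both overlapped their 3 h libraries. Against 0 h they were higher by 4.83 ± 0.56 and 4.35 ± 0.57 (limma adjusted p = 1.66e-05 and 4.54e-05), and by 4.02 and 3.51 without 0 h replicate 2. CsaV3_6G039690 was at 4.94 with a pseudocount of 0.1. CsaV3_6G039700, in contrast, was at 24.2, 22.8 and 23.3 FPKM, far below its 3 h libraries. Its log2 fold change against 0 h was 1.07 ± 0.12 (limma adjusted p = 4.56e-06), and it fell under the fold threshold without 0 h replicate 2, at 0.91. CsaV3_6G039700 held 50.4% to 57.5% of the run's FPKM at 3 h and 14.5% to 20.9% at 24 h, while CsaV3_6G039710 went from 15.9% to 19.6% at 3 h to 33.9% to 47.3% at 24 h.

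CsaV3_6G039680 was at 3.65, 2.62 and 4.91 FPKM at 24 h and overlapped its 0 h libraries, at 0.58 ± 0.35 (limma adjusted p = 0.162). CsaV3_6G039720 reached 1.38, 1.11 and 2.54 FPKM, at 1.94 ± 0.35 (limma adjusted p = 0.000337). Its size of change was 3.56 with a pseudocount of 0.1 and 1.32 with a pseudocount of 1, so only the direction can be read from it. CsaV3_6G039670 was at 3.04, 5.92 and 3.66 FPKM and was not called, at -0.61 ± 0.21 (limma adjusted p = 0.0205).

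The genes called lower at 24 h were CsaV3_1G040750, CsaV3_6G036550 and CsaV3_6G039660. CsaV3_1G040750 had 1.98, 2.36 and 2.11 FPKM, at -1.77 ± 0.11 (limma adjusted p = 3.10e-08), or -1.59 relative to the median of all genes. It had held 6.79, 5.96 and 6.45 FPKM at 12 h, so that most of its decrease lay between 12 h and 24 h. CsaV3_6G036550 was nearly absent, at 0.0247, 0.0376 and 0.126 FPKM, at -2.24 ± 0.16 (limma adjusted p = 8.76e-08). Its size of change was -3.84 with a pseudocount of 0.1 and -1.57 with a pseudocount of 1, and is set by that choice. CsaV3_6G039660 stayed where it was at 12 h, with 3.00, 4.46 and 4.98 FPKM, at -2.50 ± 0.15 (limma adjusted p = 1.25e-08).

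CsaV3_6G014060 lay at the fold threshold at 24 h. It had 21.1, 38.1 and 27.3 FPKM, and all 24 h libraries were above all 0 h libraries. Its log2 fold change was 0.996 ± 0.19 (limma adjusted p = 0.000509), or 1.17 relative to the median of all genes. It was called with median-ratio rescaling (1.20), quantile normalization (1.06) or a pseudocount of 0.1 (1.02). It was also called on leaving out 0 h replicate 1 (1.03), 0 h replicate 3 (1.08), 24 h replicate 1 (1.20) or 24 h replicate 3 (1.01).

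**Figure D4:**
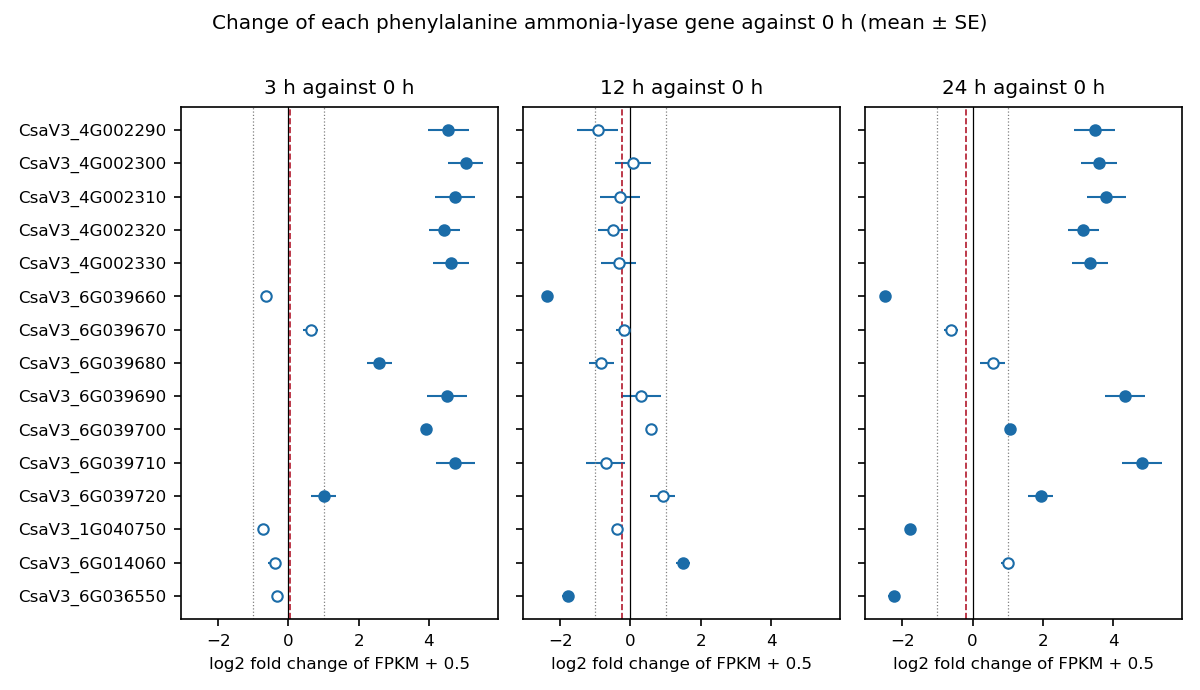
Log2 fold change of each PAL gene at 3 h, 12 h and 24 h against 0 h (x axis, log2 of FPKM + 0.5) with its SE (bars). Filled points were called by limma, dotted lines mark the fold threshold and the dashed line is the median of all tested genes. Called genes number 10 at 3 h, 3 at 12 h and 12 at 24 h. CsaV3_6G039720 at 3 h loses its call and CsaV3_6G014060 at 24 h gains one with median-ratio rescaling or quantile normalization.

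From 12 h to 24 h, 9 PAL genes rose and 1 fell, against 8.46% higher and 5.2% lower among all tested genes. Median changes were 1.40 for the PAL genes and 0.03 for all tested genes on the log2 scale. CsaV3_6G039710 rose most, by 5.54 ± 0.56 (limma adjusted p = 1.75e-05), followed by CsaV3_4G002290 at 4.41 ± 0.58 (limma adjusted p = 0.000108). With a pseudocount of 0.1 CsaV3_4G002320 and CsaV3_4G002330 were at 4.46 and 4.28 in place of 3.65 and 3.68. The rest of the chromosome 4 run lay between 3.53 and 4.11, CsaV3_6G039690 was at 4.04 and CsaV3_6G039680 at 1.40. CsaV3_6G039720 was at 1.03 ± 0.35 (limma adjusted p = 0.0281) and lost its call with a pseudocount of 1 (0.76), with quantile normalization (0.95), without 12 h replicate 2 (0.74) and without 24 h replicate 3 (0.76). CsaV3_1G040750 fell by 1.38 ± 0.11 (limma adjusted p = 1.38e-06).

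Some marker sums moved at the later times as well. The epidermis and cuticle markers summed to 73.2 to 98.9 FPKM at 12 h and 72.9 to 96.5 FPKM at 24 h, below 0 h and 3 h at both times. Against 0 h, 0 of the 7 were called higher and 1 lower at 12 h, and 1 higher and 1 lower at 24 h. All tested genes had 9.62% higher and 16.6% lower at 12 h, and 13.2% and 18.1% at 24 h. The counts were near those shares, so the lower sum is not a trait of the whole list. The photosynthetic markers were highest at 12 h, at 66282 to 80447 FPKM, and stood at 38445 to 53983 FPKM at 24 h. The xylem markers summed to 10.004 to 11.8 FPKM at 12 h and 13.9 to 18.2 FPKM at 24 h, and 1 or 2 of these 19 were at 0 in all libraries of a time. The phloem markers summed to 395 to 439 FPKM at 12 h and 388 to 540 FPKM at 24 h. The part of cell types in the results of these times was not tested.

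Levels of the PAL genes can be ordered within each time. At 0 h CsaV3_6G039660 led at a mean of 25.3 FPKM, and its libraries lay above those of CsaV3_6G014060 (13.9) and CsaV3_6G039700 (11.1). The ranges of the latter genes overlapped, but CsaV3_6G014060 was the higher of them in each 0 h library. At 3 h CsaV3_6G039700 (171 FPKM) was above CsaV3_4G002290 (138), with all libraries apart. CsaV3_4G002310, CsaV3_6G039710, CsaV3_6G039690 and CsaV3_4G002300 followed at 59.6, 55.2, 45.4 and 40.0 FPKM. Their ranges overlapped between neighbours, but the order was the same in each 3 h library. At 12 h only CsaV3_6G014060 (40.0) and CsaV3_6G039700 (16.8) had means over 10 FPKM, and they did not overlap. At 24 h the ranges of CsaV3_4G002290 (69.3), CsaV3_6G039710 (60.1) and CsaV3_6G039690 (40.5) overlapped at the top. Within each 24 h library these genes stood in this order.

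Over the 12 libraries the 5 chromosome 4 genes correlated with each other at Pearson r of 0.985 to 0.997, and adding CsaV3_6G039690 and CsaV3_6G039710 the lowest r was 0.960. Within the chromosome 6 run r ran from -0.67 to 0.98. The points are the same 12 libraries at 4 times, and the values are descriptions. The uncertain split of reads between like genes of a run applies to them, and to the shares and the order of levels above. The 5 genes most like CsaV3_4G002300 among 12267 genes were CsaV3_UNG232220 (r = 0.995) and CsaV3_1G015170 (0.989), both described as CCR4-associated factor 1 homolog 11, cinnamoyl-CoA reductase 1 CsaV3_5G027330 (0.994), the putative nuclease HARBI1 CsaV3_1G040660 (0.992) and cinnamoyl-CoA reductase 2-like CsaV3_3G032840 (0.990). The 5 most like CsaV3_6G039700 were the glycerophosphodiester phosphodiesterase GDPDL4 CsaV3_7G018770 (r = 0.990), a probable tyrosine-protein phosphatase, CsaV3_6G015410 (0.984), 3-ketoacyl-CoA synthase 10 CsaV3_4G036210 (0.983), vacuolar protein 8 CsaV3_1G045910 (0.982) and an inactive rhomboid protein, CsaV3_5G003180 (0.982).

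Genes around PAL were taken from lists of the pathway. Of 25 genes of the shikimate pathway, which supplies phenylalanine, all were tested, and 4 were called higher and 2 lower after 3 h, 2 and 3 after 12 h, and 3 and 2 after 24 h. Among all tested genes 9.89% were called higher and 5.39% lower after 3 h, 9.62% and 16.6% after 12 h, and 13.2% and 18.1% after 24 h, so that the later counts of this list were near or below those shares. The list's median log2 fold changes were 0.11, -0.39 and -0.26. CsaV3_1G014510, an arogenate dehydratase 6-like gene of the last step to phenylalanine, went from 5.20, 2.72 and 5.45 FPKM at 0 h to 53.0, 62.7 and 57.3 FPKM after 3 h, with a log2 fold change of 3.60 ± 0.19 (limma adjusted p = 3.69e-08). It was back at 5.56 to 5.83 FPKM at 12 h. CsaV3_6G045310, a phospho-2-dehydro-3-deoxyheptonate aldolase of the first step, rose from a mean of 5.81 FPKM to means of 61.985 after 3 h, 37.2 after 12 h and 85.7 after 24 h, and was called at each time. CsaV3_6G014760, also described as arogenate dehydratase 6-like, went the other way, from 81.7 to 35.1 FPKM at 3 h, at -1.20 ± 0.12 (limma adjusted p = 4.92e-06).

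The next steps after PAL are cinnamate 4-hydroxylase (C4H) and 4-coumarate-CoA ligase (4CL). Of 9 genes listed, 6 were tested, with 3 called higher and 0 lower at 3 h, and 1 higher and 2 lower at both 12 h and 24 h. Over all tested genes the shares were 9.89% and 5.39% for 3 h, 9.62% and 16.6% for 12 h, and 13.2% and 18.1% for 24 h. Their medians were 1.14, -0.59 and -0.038 on the log2 scale. The C4H gene CsaV3_6G013150, chosen after its values were seen, had 75.2, 68.7 and 81.6 FPKM at 0 h and 136, 149 and 139 FPKM at 3 h, at 0.91 (limma adjusted p = 2.10e-06), under the fold threshold. The 4CL genes differed from each other. CsaV3_2G036090 (4CL2) peaked at 12 h, from a mean of 5.76 FPKM at 0 h to 72.5 FPKM, a log2 fold change of 3.55 ± 0.22 (limma adjusted p = 3.27e-08), whereas CsaV3_3G032630 (4CL1) fell from 49.4 to 4.54 FPKM, at -3.32 ± 0.10 (limma adjusted p = 7.79e-11). CsaV3_7G031620 and CsaV3_7G031610, neighbours described as 4CL2-like, were at 8.18 and 6.30 FPKM at 3 h and under 1 FPKM on average at 0 h, at 2.77 and 2.75.

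Of 40 genes of the lignin branch, 33 were tested, and 8 were called higher and 1 lower after 3 h, 5 and 11 after 12 h, and 7 and 7 after 24 h, at medians of 0.25, -0.19 and -0.52. All tested genes had 9.89% higher and 5.39% lower after 3 h, 9.62% and 16.6% after 12 h, and 13.2% and 18.1% after 24 h. The cinnamoyl-CoA reductase CsaV3_5G027330, an enzyme of the step from CoA esters to aldehydes, had 4.29, 0.881 and 4.70 FPKM at 0 h and 54.5, 75.6 and 62.7 FPKM at 3 h. Its 0 h replicate 2 was low as in the chromosome 4 run, and its log2 fold change was 4.30 ± 0.50 (limma adjusted p = 3.29e-05). The low library enlarges this fold, and a value without it is not given. CsaV3_6G046880, a cytochrome P450 84A1, the type of ferulate 5-hydroxylase in Arabidopsis, peaked at 12 h instead, from 8.97 to 149 FPKM, at 3.98 ± 0.10 (limma adjusted p = 1.59e-11). Other genes of the branch fell. The caffeoylshikimate esterase CsaV3_2G030770 went from 48.7 to 12.9 FPKM at 12 h, at -1.89 ± 0.10 (limma adjusted p = 1.02e-08). The cinnamoyl-CoA reductase 1-like CsaV3_7G031910 went from 28.4 to 4.85 FPKM at 24 h, at -2.44 ± 0.09 (limma adjusted p = 3.32e-10).

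Of 46 genes of the flavonoid branch, 30 were tested, and 3 were called higher and 3 lower after 3 h, 11 and 5 after 12 h, and 10 and 8 after 24 h, at medians of -0.045, 0.053 and 0.025. Against the shares over all tested genes (9.89% and 5.39%, 9.62% and 16.6%, 13.2% and 18.1%), the higher genes of 3 h and the lower genes of 12 h were close to the background. CsaV3_5G001480, a flavanone 3-dioxygenase-like gene, rose from 29.9 to 97.7 FPKM at 3 h and fell to 9.79 FPKM at 12 h, at 1.69 ± 0.11 and -1.56 ± 0.11 (limma adjusted p = 9.85e-08 and 6.83e-08). CsaV3_5G038510, described as an anthocyanidin glucoside malonyltransferase, rose from 4.87 to 104 FPKM at 3 h, at 4.29 ± 0.25 (limma adjusted p = 7.81e-08).

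In Arabidopsis, PAL proteins are marked for breakdown by kelch-repeat F-box proteins, among them At2g44130. All 3 cucumber genes described as like it were called higher at 24 h, where 13.2% of all tested genes were, and 0 of 3 at 3 h. CsaV3_3G038520 and CsaV3_7G005560 passed the filter on low values only through their 12 h and 24 h libraries, where they were higher. With nearly the same values in that pair as well, the count of 3 cannot be read against the share of all genes. CsaV3_4G023370 had 21.6, 23.0 and 22.6 FPKM at 0 h and 60.1, 57.3 and 62.5 FPKM at 24 h, at 1.40 (limma adjusted p = 4.44e-05). CsaV3_3G038520 had 0.0547, 0.09997 and 0.0443 FPKM at 0 h and 13.2, 6.21 and 10.7 FPKM at 24 h, at 4.16 ± 0.21 (limma adjusted p = 4.05e-09). CsaV3_7G005560 had nearly the same values, at a ratio of CsaV3_3G038520 to it of 0.833 to 1.15 over the libraries, and the split of reads between the pair is uncertain. Of its 24 h libraries replicate 2 was the lowest, as in the chromosome 4 run.

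**Figure D5:**
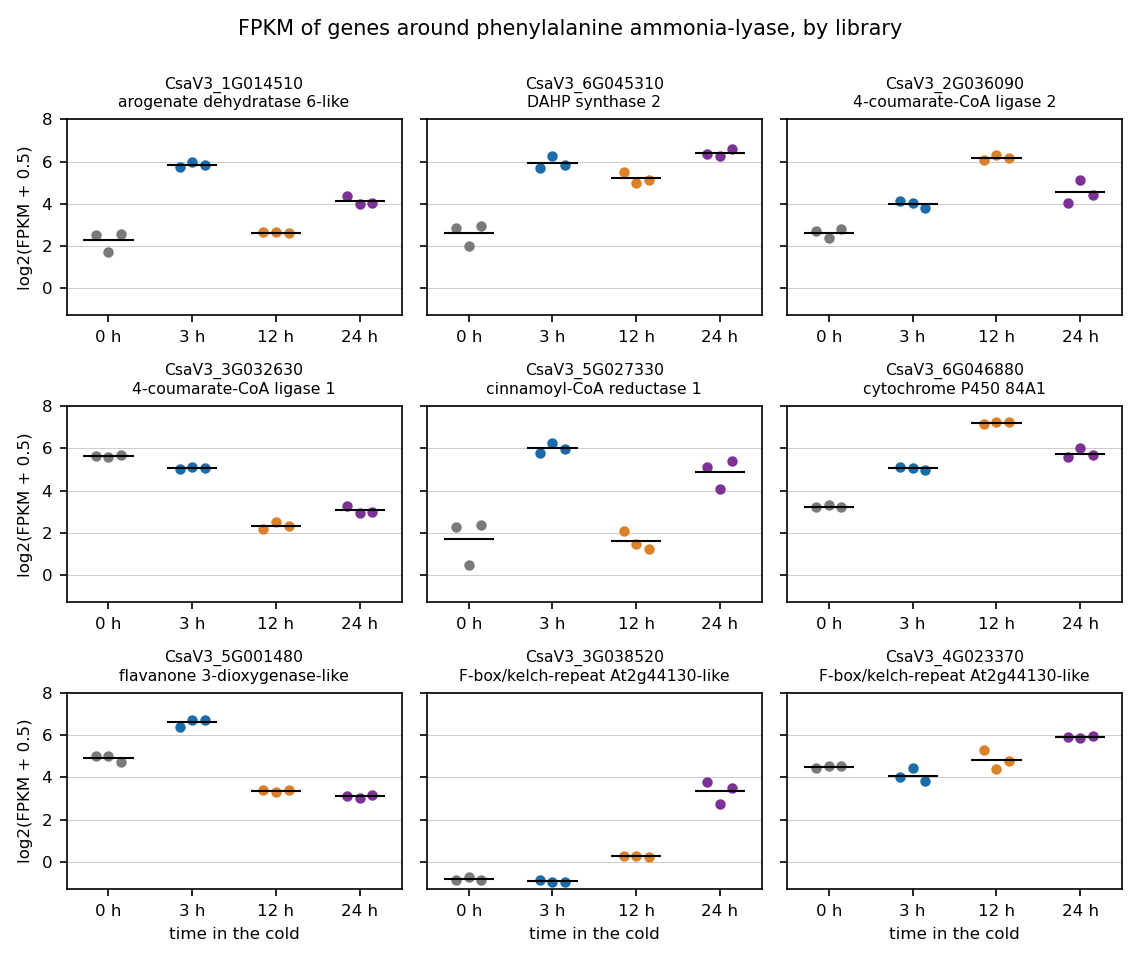
Log2(FPKM + 0.5) of 9 genes of the pathway lists in the 3 libraries of each time (points) with their mean (bars). CsaV3_1G014510 and CsaV3_5G027330 are high at 3 h and low at 12 h, CsaV3_2G036090 and CsaV3_6G046880 are highest at 12 h, and both F-box genes are highest at 24 h.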

How the data were processed

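RNA-seq of cucumber leaves was analysed. The authors trimmed reads with cutadapt 1.9 (submitters' processing notes) and used HISAT2 to place them on the genome Chinese Long V3, and they deposited FPKM for 24317 genes in 6 tables. The table of all 4 times was used. The other 5, with pairs of times, hold the authors' fold changes, p-values and q-values and were not used. The sources used here do not give the program that computed FPKM, its handling of reads mapping to several places or the read depth. A deposited FPKM of 0.0001 stands for 0 and was set to 0. FPKM summed to 561513 to 586297 in a library, with 18678 to 19551 genes above 0. No libraries were duplicates.

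limma 3.58.1 (R 4.3.3; eBayes with trend and robust) was run on log2(FPKM + 0.5) of all 12 libraries in 1 fit. The steps were tested on simulated data. No exact permutation test was used, since with 3 against 3 its smallest p is 0.1. The paper states 3 biological replicates, and whether these were separate plants is not in the labels. The p-values set each difference against the spread between these libraries. Tables and figures used Python 3.11.15, pandas 2.3.3 and matplotlib 3.10.9.

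All PAL genes are named. In each pathway list the 2 highest and 2 lowest called genes at each time against 0 h could be named, and a selection is. The third F-box gene was added so that the list is complete. The genes most like CsaV3_6G039700, the most abundant PAL gene, and CsaV3_4G002300 were ranked by Pearson r over 12 libraries among genes whose mean reached 5 FPKM at any time. Members and lists were chosen with earlier results of these data known. The chromosome was read from the gene identifier, which matched in 46 of 46 glutathione S-transferase genes. No sequence is printed.

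Alternatives were pseudocounts of 0.1 and 1, quantile normalization, median-ratio rescaling, no filter or one of 1 FPKM, a fit on only the 6 libraries compared, a replicate block, an unadjusted p, no fold threshold and leaving out each library. Leaving out both 0 h replicate 2 and 24 h replicate 2 was added after seeing the data.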

Additional observations from a re-analysis of the deposited data

How the results depend on the processing

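Of the 47 calls of PAL genes over 5 comparisons, 44 held under every alternative that kept the adjusted p and fold thresholds; the exceptions were CsaV3_6G039720 at 3 h against 0 h and 24 h against 12 h, and CsaV3_6G039700 at 24 h against 0 h. PAL genes higher at 12 h against 0 h numbered 2 with a pseudocount of 0.1 or quantile normalization and 3 without a fold threshold. Those lower at 24 h against 12 h numbered 2 with a pseudocount of 0.1 and 3 without a fold threshold. Without a fold threshold 2 were lower at 3 h against 0 h and 2 higher at 12 h against 3 h. With 0 h replicate 2 and 24 h replicate 2 both left out, 8 were lower at 12 h against 0 h, CsaV3_4G002300 reversed to -0.58 and CsaV3_6G039690 to -0.53. On leaving out 1 library at a time, the genes higher at 12 h against 0 h numbered 1 to 2 and those lower 2 to 8. The log2 fold change at 12 h against 0 h then ran from -0.58 to 0.45 for CsaV3_4G002300, -1.02 to 0.071 for CsaV3_4G002310, -1.06 to 0.038 for CsaV3_4G002330 and -0.53 to 0.79 for CsaV3_6G039690. That of CsaV3_6G039720 at 12 h against 3 h ran from -0.37 to 0.30, and that of CsaV3_6G039660 at 24 h against 12 h from -0.25 to 0.078. CsaV3_6G039720 at 12 h against 3 h reversed to 0.060 with median-ratio rescaling and 0.24 with quantile normalization, and CsaV3_6G039670 at 12 h against 0 h to 0.044 and 0.0050. The cause of these changes was not tested. Replicate numbers did not pair the libraries (2 of 18 same-number correlations over 0.1, and 3 of 12 libraries closest to their own number), and the fit with a replicate block gave the same calls, for instance 10 higher at 3 h against 0 h. Levels under about 0.5 FPKM are set by the pseudocount in the fold change, and with 3 libraries a time only large differences can be read.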
